A study of Mus musculus and Sus scrofa with 30 samples.

Results

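Porcine dedifferentiated fat (DFAT) cells are fibroblast-like cells obtained from mature fat cells of pig subcutaneous fat, and they can be turned into fat cells again. The comparison described here asks what dicoumarol adds to cells that already receive magnolol: 3 DFAT libraries treated with dicoumarol plus magnolol (the combination) were set against 3 DFAT libraries treated with magnolol alone. These are 6 of the 30 RNA-seq libraries of a study on compounds that promote fat cell formation. The members were chosen by label only. Every DFAT library, the controls included, came from cells under the same adipogenic induction in Advanced DMEM with 0.5 µM dexamethasone, 12.5 µM of the phosphodiesterase inhibitor IBMX, 20 µM biotin, 10 µM pantothenate and 2% serum, and was taken on day 5. The other DFAT groups, of 3 libraries each, received DMSO vehicle, dicoumarol alone or rosiglitazone, a synthetic agonist of the receptor PPARγ. The 3T3-L1 line, fibroblasts of mouse embryos that are able to form fat cells, had the same 5 groups, also taken on day 5. Its DMEM held 0.75 µg/mL insulin, 75 nM dexamethasone, 37.5 µM IBMX and 10% serum. The sources used here give neither the compound doses, nor the number of pigs behind the cells, nor what a replicate number stands for, so p-values measure the spread between these libraries, which may be technical.

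A fat cell stores triglyceride in lipid droplets. It takes up fatty acids through CD36 and lipoprotein lipase, activates and binds them inside the cell, esterifies them, and coats the droplet with perilipins. PPARγ and C/EBPα switch on most of these genes as precursor cells lose stromal genes such as PDGFRA and decorin. Magnolol is a lignan of magnolia bark that has been described as a ligand of PPARγ and of its partner RXR. Dicoumarol is a coumarin that blocks vitamin K recycling by VKORC1 and also inhibits the quinone reductase NQO1.

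Estimated depth was 63.4 to 67.4 M reads in the magnolol libraries and 54.4 to 65.4 M in the combination libraries. Mitochondrial genes took 10.5% to 12.9% and 12.2% to 15.1% of the values, and cytosolic ribosomal protein genes 1.07% to 1.24% and 1.00% to 1.20%. Values are counts normalized by DESeq2 size factors, called normalized counts below. They are scaled within a library but not by gene length, so levels are compared between groups and never between genes. The labels give subcutaneous fat as the source. In the 6 libraries the stromal markers PDGFRA (31852 to 53394) and PDGFRB (43990 to 48936) were present beside the 7 adipocyte markers checked, which together held 28321 to 35139 normalized counts with magnolol and 44868 to 48404 with the combination. LPL alone held 21237 to 26910 and 31990 to 34945 of these sums. Of the other stromal markers checked, CD34 was low (13.7 to 25.5), DLK1 did not exceed 0.914 and THY1 was not found by symbol. Of the defining markers of other cell types, VWF and KDR (endothelium) and CDH1 and KRT19 (epithelium) were at 0 in all 6 libraries, and PTPRC (leukocytes), CDH5 (endothelium), MYOD1 and MYOG (muscle) did not exceed 3.16. Others were present: PECAM1 (endothelium) at 160 to 206 normalized counts, CD14 (monocytes and macrophages) at 697 to 875, ACTA1 (muscle) at 116 to 162, NOTCH3 (mural cells) at 18390 to 21988 and MYH11 (smooth muscle) at 1238 to 2411. DES, a muscle filament, had 53.2 to 117 with magnolol and 123 to 155 with the combination. The 10 smooth muscle and pericyte markers summed to 50043 to 54059 with magnolol and 57545 to 61475 with the combination, HIGD1B being at 0, and the 14 bone and cartilage markers to 5566 to 6115 and 4679 to 5217. Neither sum overlapped between the groups, no member of either list was called without the replicate block described below (with it, 2 smooth muscle and pericyte markers were called higher and 1 lower, and 2 bone and cartilage markers lower), and the part of these markers in the results was not tested. The bulk values cannot tell a change in the number of cells of a type from a change in RNA per cell.

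The genes called higher with the combination than with magnolol alone included 4 of 14 lipid droplet genes and 7 of 15 genes of fatty acid uptake and binding. Those called lower were fewer and included the stromal marker PDGFRA, the matrix genes DCN and LUM, the immune factors CCL11 and IL33, and the phosphodiesterases PDE4D and PDE7B. Of 14819 genes tested, limma called 92 (0.621%) at an adjusted p under 0.05, of which 57 were higher (0.385%) and 35 lower (0.236%). At an unadjusted p under 0.05 there were 989 genes (6.67%). Of all genes tested, 7291 were above 0 and 7528 below. These shares stand behind every list count below, and at 0.621% most lists of the sizes used here would hold no call. A list without a call is therefore no result about its members. Most called changes were small: the median log2 fold change was 0.53 among the higher genes and −0.47 among the lower ones, 7 genes rose and 3 fell at least 2-fold, and the median of all tested genes was −0.0019 (median SE 0.099). All fold changes refer to log2(normalized count + 1), so that changes of low genes come out too small. In all 92 genes the 3 combination libraries lay all above or all below the 3 magnolol libraries, which held for 12.1% of all genes tested. All 3 numbered pairs then move the same way by necessity, so their direction adds no evidence. The numbers were taken to pair the libraries, on a hint from the data that is described with the processing. With the replicate number as a block limma called 290 genes (1.96%), 151 higher (1.02%) and 139 lower (0.938%), all 92 among them. Of the 92 calls, 35 were kept without each of the 6 libraries in turn and 28 under all 17 alternatives. Below, calls that an alternative ended are named with its adjusted p.

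**Figure D1:**
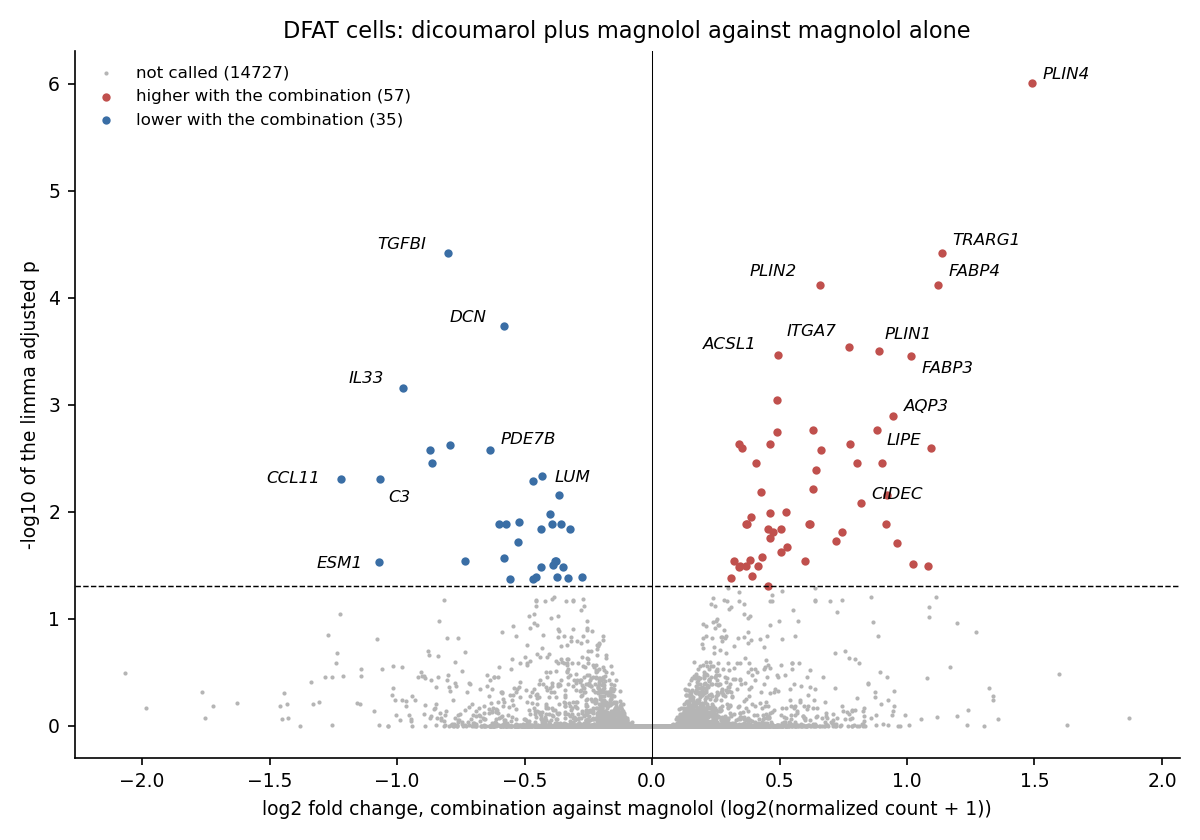
Log2 fold change of each of the 14819 tested genes, combination against magnolol (x axis), against the negative log10 of its limma adjusted p (y axis). Red points are the 57 genes called higher and blue points the 35 called lower, the dashed line is the threshold of 0.05, and PLIN4 stands at the top with a log2 fold change of 1.49.

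Among the called genes, the largest rise was in PLIN4, a gene of the lipid droplet coat. PLIN4 (ENSSSCG00000013512, chromosome 2, 74318628 to 74331909, plus strand), a perilipin of adipocyte droplets, had 2279, 2473 and 2083 normalized counts in magnolol replicates 1, 2 and 3 and 6620, 6297 and 6248 in combination replicates 1, 2 and 3. This was a 2.81-fold rise (log2 fold change 1.49, SE 0.10, limma adjusted p 9.9e-07), and the lowest combination library had more than 2-fold the value of the highest magnolol library. PLIN1 (ENSSSCG00000001844, chromosome 7, 55236348 to 55250797, minus strand), the perilipin that gates lipolysis at the droplet surface, went from 1872, 2332 and 2144 to 3969, 3829 and 3910 (log2 fold change 0.89, SE 0.10, adjusted p 0.000317). PLIN2 (ENSSSCG00000035863, chromosome 1, 203683862 to 203709273, plus strand), the droplet coat protein found in most cell types, went from 4927, 5628 and 5159 to 8766, 8021 and 8027 (log2 fold change 0.66, SE 0.067, adjusted p 7.6e-05). The 3 perilipins kept their calls under every alternative. CIDEC, which lets droplets fuse and grow, had 731, 834 and 791 with magnolol and 1700, 1240 and 1259 with the combination, where replicate 1 stood above the others (log2 fold change 0.82, SE 0.14, adjusted p 0.00825). In all, 4 of the 14 tested droplet genes were called higher and none lower. Of the 14, 11 were above 0 and 3 below, and the list's median log2 fold change was 0.18. FITM2, which helps droplets bud from the endoplasmic reticulum, was called only with the block (0.21, adjusted p 0.144 without it and 0.0386 with it). CIDEC lost its call without combination replicate 1 or magnolol replicate 1 (adjusted p 0.0602 and 0.0616). Calls were also lost with no filter on low genes for CIDEC (adjusted p 0.0539) and without the variance trend for CIDEC (0.0569).

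Fatty acid uptake, activation and binding was the list with the most calls, 7 of 15 tested genes, all higher, with a median log2 fold change of 0.37. FABP4 (ENSSSCG00000040681, chromosome 4, 55096404 to 55101896, plus strand), the fatty acid-binding protein typical of adipocytes, had 1684, 1679 and 1789 normalized counts with magnolol and 3871, 3610 and 3726 with the combination. Both groups were tight, and the rise was 2.18-fold (log2 fold change 1.12, SE 0.12, adjusted p 7.6e-05). FABP3 (ENSSSCG00000036883, chromosome 6, 87942790 to 87951610, minus strand), a related carrier best known from heart muscle, went from 4354, 4790 and 5003 to 9956, 8401 and 10312 (log2 fold change 1.02, SE 0.12, adjusted p 0.000353). CD36 (ENSSSCG00000061957, chromosome 9, 99687536 to 99782169, minus strand), the fatty acid translocase of the cell surface, had 7840, 9086 and 9453 with magnolol and 13993, 12045 and 15809 with the combination (log2 fold change 0.66, SE 0.10, adjusted p 0.00264). ACSL1, which couples fatty acids to coenzyme A, went from 9053, 9335 and 9258 to 13568, 12071 and 13361 (log2 fold change 0.49, SE 0.059, adjusted p 0.000345). These 4 calls held under every alternative. LPL, the lipase that frees fatty acids from circulating lipoproteins, had 21237, 25556 and 26910 with magnolol and 34187, 31990 and 34945 with the combination (log2 fold change 0.46, SE 0.082, adjusted p 0.0104). FABP5 (0.52, adjusted p 0.0101) and DBI, an acyl-CoA binding protein (0.37, adjusted p 0.0319), rose as well. LPL lost its call without combination replicates 1 and 3 or magnolol replicate 1 (adjusted p 0.0518 to 0.0653), FABP5 without combination replicates 1 and 3 or magnolol replicate 1 (0.0586 to 0.0666) and DBI without any 1 of the 6 libraries (0.0513 to 0.214). Losses of a call also occurred with only the compared groups fitted for LPL, FABP5 and DBI (adjusted p 0.0618 to 0.101), with no filter on low genes for DBI (0.0982) and without the variance trend for LPL and DBI (0.0527 and 0.116).

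Genes that build and break down triglyceride changed in part. LIPE (ENSSSCG00000003018, chromosome 6, 49540708 to 49560125, plus strand), the hormone-sensitive lipase, had 1254, 1372 and 1162 normalized counts with magnolol and 2566, 2218 and 2195 with the combination (log2 fold change 0.88, SE 0.12, adjusted p 0.00173). AQP3 (ENSSSCG00000040513, chromosome 10, 33045245 to 33051082, plus strand), a channel for water and glycerol, went from 1051, 1237 and 1030 to 2390, 1974 and 2036 (log2 fold change 0.95, SE 0.13, adjusted p 0.00126). In both genes the groups were separated and replicate 1 was the highest combination library. ADORA1, the adenosine A1 receptor that restrains lipolysis, rose by 0.74 (SE 0.14, adjusted p 0.0154), and GK, glycerol kinase, by 0.46 (SE 0.10, adjusted p 0.0495). Of the 11 tested lipolysis genes 2 were called higher (5 with the block), with a median of 0.30. Of the 19 triglyceride synthesis genes 2 were called higher (4 with the block), with a median of 0.071. DGAT2, which adds the last acyl chain of triglyceride, reached the threshold only with the block (0.57, adjusted p 0.104 without and 0.0074 with it). PCK1, the enzyme of glyceroneogenesis, had 212, 210.2 and 130.5 with magnolol and 562, 432 and 377 with the combination. Its log2 fold change of 1.32 had a large error (SE 0.49) and was not called (adjusted p 0.442), but it was called with the block (0.0432), with only the compared groups fitted (0.0439) and with limma-voom (0.0281). ADORA1 lost its call without combination replicates 1 and 3 or magnolol replicate 1 (adjusted p 0.0817 to 0.111) and GK without any 1 of the 6 libraries (0.0716 to 0.264). Calls ended, too, with only the compared groups fitted for ADORA1 and GK (adjusted p 0.0538 and 0.0648), with no filter on low genes for ADORA1 and GK (0.0545 and 0.163), without the variance trend for GK (0.182), after rescaling to the same total for GK (0.133), after quantile normalization for GK (0.0873), with limma-voom for GK (0.0547) and with a pseudocount of 0.5 for GK (0.0502).

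**Figure D2:**
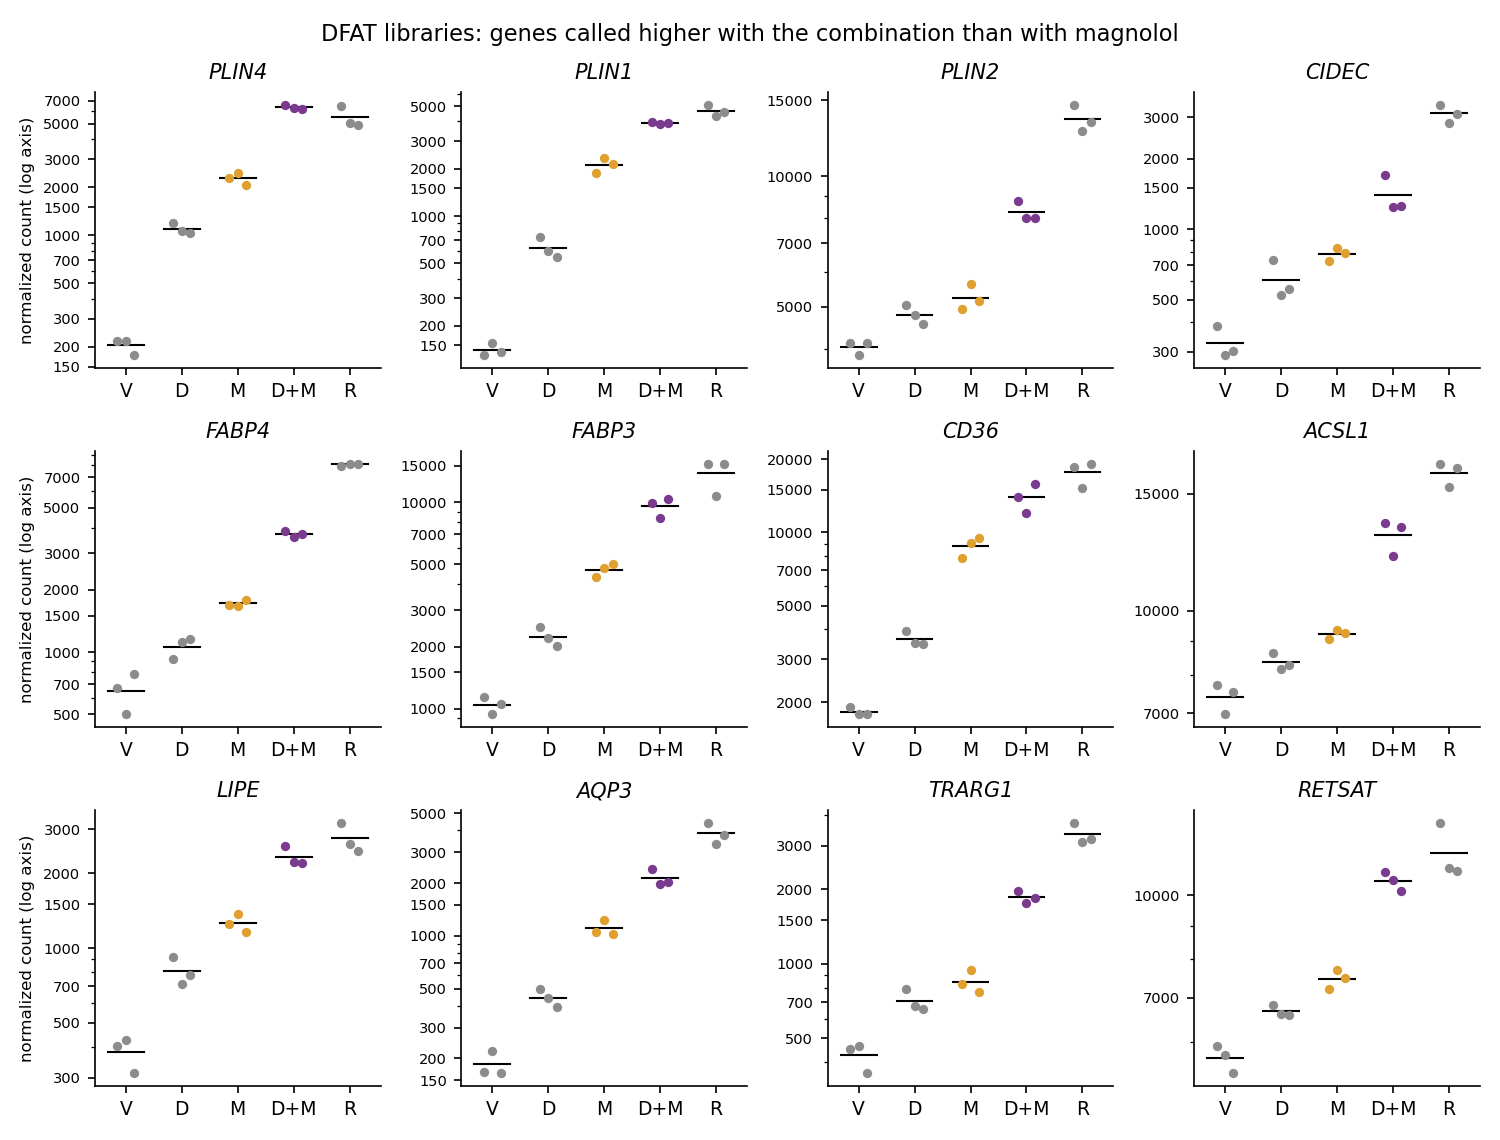
Normalized counts (log axis) of 12 genes called higher, in the 3 libraries each of vehicle (V), dicoumarol (D), magnolol (M), combination (D+M) and rosiglitazone (R); points are libraries in the order of their replicate numbers and bars are means. In every panel the 3 combination libraries lie above the 3 magnolol libraries.

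Of the fatty acid synthesis and oxidation genes, 3 of 22 and 2 of 32 were called, all higher, beside 0.385% of all genes called higher. SCD, the stearoyl-CoA desaturase, went from 106669, 105150 and 103617 normalized counts to 152953, 132479 and 140809 (log2 fold change 0.43, SE 0.087, adjusted p 0.0268). ELOVL6, an elongase of saturated fatty acids, rose by 0.39 (SE 0.069, adjusted p 0.0112), and THRSP, a lipogenic nuclear protein, by 0.63 (SE 0.11, adjusted p 0.00615). They were 3 of 22 synthesis genes tested, whose median was 0.049. Among 32 oxidation genes, ACAA1, a peroxisomal thiolase, rose by 0.41 (SE 0.063, adjusted p 0.00349) and OXCT1, which lets cells burn ketone bodies, by 0.46 (SE 0.067, adjusted p 0.00233). OXCT1 had 1528, 1719 and 1737 with magnolol and 2227, 2271 and 2363 with the combination, with no overlap. With the block 9 oxidation genes were called, all higher, CPT1A and ACADM among them (0.28 and 0.26, block adjusted p 0.00269 and 0.00979, 0.163 and 0.1 without it). The oxidation list had 29 members above 0, beside 7291 of all 14819 genes tested, and a median of 0.11. IDH1, the cytosolic isocitrate dehydrogenase, was the 1 called gene of 24 in the citric acid cycle list (0.35, SE 0.052, adjusted p 0.00253). In that list 22 genes were above 0 and 2 below. None of 46 respiratory chain subunits (median 0.048, 0 at an unadjusted p under 0.05) and none of 22 genes of branched-chain amino acid breakdown (median 0.076, 3 at an unadjusted p under 0.05) was called, with or without the block. Without the block 0.621% of all genes were called, so most lists of this size would hold no call. Mitochondrial transcripts took a share of 12.2% to 15.1% in the combination libraries, against 10.5% to 12.9% with magnolol, and its part in these values was not tested. SCD lost its call without combination replicates 1 and 3 or magnolol replicates 1, 2 and 3 (adjusted p 0.0729 to 0.173), ELOVL6 without combination replicates 1 and 3 or magnolol replicate 1 (0.0607 to 0.0915) and THRSP without magnolol replicate 1 (0.0539). Among other settings, calls ended with only the compared groups fitted for SCD, ELOVL6 and THRSP (adjusted p 0.0618 to 0.0884), with no filter on low genes for SCD (0.0982) and without the variance trend for SCD and ELOVL6 (0.0527 and 0.0527).

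No gene of the 36 adipogenic transcription factors and coregulators was called (median 0.018, 5 at an unadjusted p under 0.05). Over all genes tested, the shares were 0.621% called and 6.67% at that unadjusted p. PPARG, the gene of PPARγ, had 1138, 1251 and 1149 normalized counts with magnolol and 1454, 1403 and 1474 with the combination. The groups did not overlap, and the log2 fold change of 0.29 (SE 0.069) missed the threshold without the block (adjusted p 0.0683) and passed it with the block (0.0248). CEBPA, the gene of C/EBPα, had 483, 639.8 and 488 and 674, 798 and 627, with overlap between the groups (log2 fold change 0.39, adjusted p 0.434, 0.0659 with the block). Adiponectin (ADIPOQ), a hormone secreted by fat cells, had 1176, 1521 and 1868 and 2091, 1997 and 2463. The lowest combination library was above the highest magnolol library, but the spread left the log2 fold change of 0.54 (SE 0.22) uncalled (adjusted p 0.571, 0.25 with the block). Both CEBPA and ADIPOQ passed only with the block and the compared groups alone (0.000543 and 2.7e-05). Of 17 adipokine and receptor genes, ADIPOR2, an adiponectin receptor, was called higher (0.34, SE 0.072, adjusted p 0.0319), and the median was 0.31. With the block RBP4, LCN2 and SFRP5 were also called higher and APLN lower. PDK4, a kinase that restrains pyruvate oxidation, stayed low, with 26.1, 31.1 and 17.9 and 19.6, 63.5 and 48.4 (0.67, adjusted p 0.852). ADIPOR2 lost its call without combination replicates 1 and 2 or magnolol replicates 1 and 3 (adjusted p 0.126 to 0.186). A call ended as well with only the compared groups fitted for ADIPOR2 (adjusted p 0.0884), with no filter on low genes for ADIPOR2 (0.0947), without the variance trend for ADIPOR2 (0.116) and after rescaling to the same total for ADIPOR2 (0.226).

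The insulin and retinoid lists each held a strongly separated gene. TRARG1 (ENSSSCG00000017801, chromosome 12, 46621117 to 46634332, minus strand), a regulator of GLUT4 trafficking in adipocytes, had 827, 947 and 767 normalized counts with magnolol and 1969, 1763 and 1841 with the combination, a 2.20-fold rise (log2 fold change 1.14, SE 0.11, adjusted p 3.8e-05). In the same list of 28 genes IGF1, insulin-like growth factor 1, fell, from 3166, 3372 and 3230 to 2317, 2556 and 2640 (log2 fold change −0.38, SE 0.078, adjusted p 0.0291), and the list median was −0.0028. RETSAT, a retinol saturase, went from 7214, 7723 and 7502 to 10840, 10546 and 10141 (log2 fold change 0.49, SE 0.064, adjusted p 0.000903). CYP26B1, which degrades retinoic acid, rose by 0.60 (SE 0.12, adjusted p 0.0288). These were 2 of 14 retinoid genes tested. With the block the list had 4 higher and 2 lower, ALDH1A1, a retinaldehyde dehydrogenase, being lower (−0.34, adjusted p 0.0683 without the block and 0.00466 with it). IGF1 lost its call without combination replicates 1 and 2 or magnolol replicates 1, 2 and 3 (adjusted p 0.0713 to 0.186) and CYP26B1 without combination replicates 1 and 3 or magnolol replicates 1 and 2 (0.104 to 0.177). Beyond single libraries, calls were lost with only the compared groups fitted for IGF1 and CYP26B1 (adjusted p 0.0569 and 0.158), with no filter on low genes for IGF1 and CYP26B1 (0.0889 and 0.109) and without the variance trend for IGF1 and CYP26B1 (0.111 and 0.111).

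Further large rises fell outside these roles. PPP1R1B, an inhibitor of protein phosphatase 1, had 59.2, 79.5 and 67.3 normalized counts with magnolol and 159.9, 148 and 129.9 with the combination (1.08, adjusted p 0.0325). SLC25A34, a mitochondrial carrier, had 94.3, 117 and 78.9 and 203, 187 and 195 (1.02, adjusted p 0.0306). HDAC9, a class IIa histone deacetylase, rose by 0.96 (adjusted p 0.0196) and SLC36A2, an amino acid transporter, by 0.92 (adjusted p 0.013). B3GNT3, a glycosyltransferase, had 224, 191 and 182 and 389, 352 and 389 (0.92, SE 0.16, adjusted p 0.00695), and its call held under every alternative. All 5 were low genes, with at most 389 normalized counts in any of the 6 libraries. PPP1R1B lost its call without any 1 of the 6 libraries (adjusted p 0.0581 to 0.194), SLC25A34 without combination replicates 1, 2 and 3 or magnolol replicates 1 and 3 (0.0847 to 0.165), HDAC9 without combination replicates 1 and 3 or magnolol replicates 1 and 2 (0.0853 to 0.125) and SLC36A2 without combination replicates 1 and 3 or magnolol replicates 1 and 3 (0.0503 to 0.0956). Calls were also lost with only the compared groups fitted for HDAC9 (adjusted p 0.0939), with no filter on low genes for PPP1R1B, SLC25A34, HDAC9 and SLC36A2 (0.0539 to 0.107), without the variance trend for SLC25A34 (0.0663) and after rescaling to the same total for PPP1R1B and SLC25A34 (0.0594 and 0.0662).

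Stromal and matrix genes made up a part of the falls. Decorin (DCN, ENSSSCG00000000915, chromosome 5, 91682658 to 91714235, plus strand), a small leucine-rich proteoglycan of the matrix, had 6483, 6535 and 6902 normalized counts with magnolol and 4431, 4285 and 4609 with the combination (log2 fold change −0.58, SE 0.064, adjusted p 0.000185). Lumican (LUM, ENSSSCG00000000916, chromosome 5, 91748885 to 91757598, plus strand), a proteoglycan of the same family from a neighbouring gene, fell from 44644, 45603 and 49266 to 33759, 33102 and 36586 (log2 fold change −0.43, SE 0.069, adjusted p 0.00461). TGFBI (ENSSSCG00000014316, chromosome 2, 138191807 to 138225366, plus strand), a secreted matrix protein induced by TGF-β, fell from 1292, 1075 and 1218 to 719.9, 679.8 and 654 (log2 fold change −0.80, SE 0.075, adjusted p 3.8e-05). These 3 calls held under every alternative. PDGFRA (ENSSSCG00000008841, chromosome 8, 40967493 to 41021441, plus strand), the receptor that marks adipose stromal progenitors, had 53394, 45202 and 45166 and 35558, 32492 and 31852 (log2 fold change −0.52, SE 0.094, adjusted p 0.0125). It was the only called gene of the 16 tested stromal markers, whose median was −0.0096, and their summed level was 427881 to 449088 with magnolol and 369738 to 398898 with the combination. Of 37 other matrix genes 2 were called lower (DCN and LUM), beside 0.236% of all genes tested, and the list median was 0.029. None of 20 collagens was called (median −0.015, 4 at an unadjusted p under 0.05), where 0.621% of all genes were called. COL1A1, the main fibrillar collagen chain, had 2040520, 1707620 and 1929480 and 1860210, 1729010 and 2020960, overlapping groups (−0.016, SE 0.13, adjusted p 1). In TGF-β and BMP signalling, ID2, an inhibitor of helix-loop-helix factors, also fell (−0.46, adjusted p 0.041) while the ligand TGFB3 rose (0.41, adjusted p 0.0319). In the Wnt list the receptor FZD4 rose (0.43, adjusted p 0.00657). PDGFRA lost its call without combination replicates 2 and 3 or magnolol replicate 1 (adjusted p 0.0545 to 0.0942), ID2 without combination replicates 1 and 3 or magnolol replicates 1 and 2 (0.113 to 0.209), TGFB3 without any 1 of the 6 libraries (0.08 to 0.157) and FZD4 without magnolol replicate 1 (0.0559). Losses of a call also occurred with only the compared groups fitted for ID2 and TGFB3 (adjusted p 0.193 and 0.0536), with no filter on low genes for PDGFRA, ID2 and TGFB3 (0.0604 to 0.126), without the variance trend for PDGFRA, ID2 and TGFB3 (0.0576 to 0.127) and after rescaling to the same total for ID2 and TGFB3 (0.126 and 0.071).

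**Figure D3:**
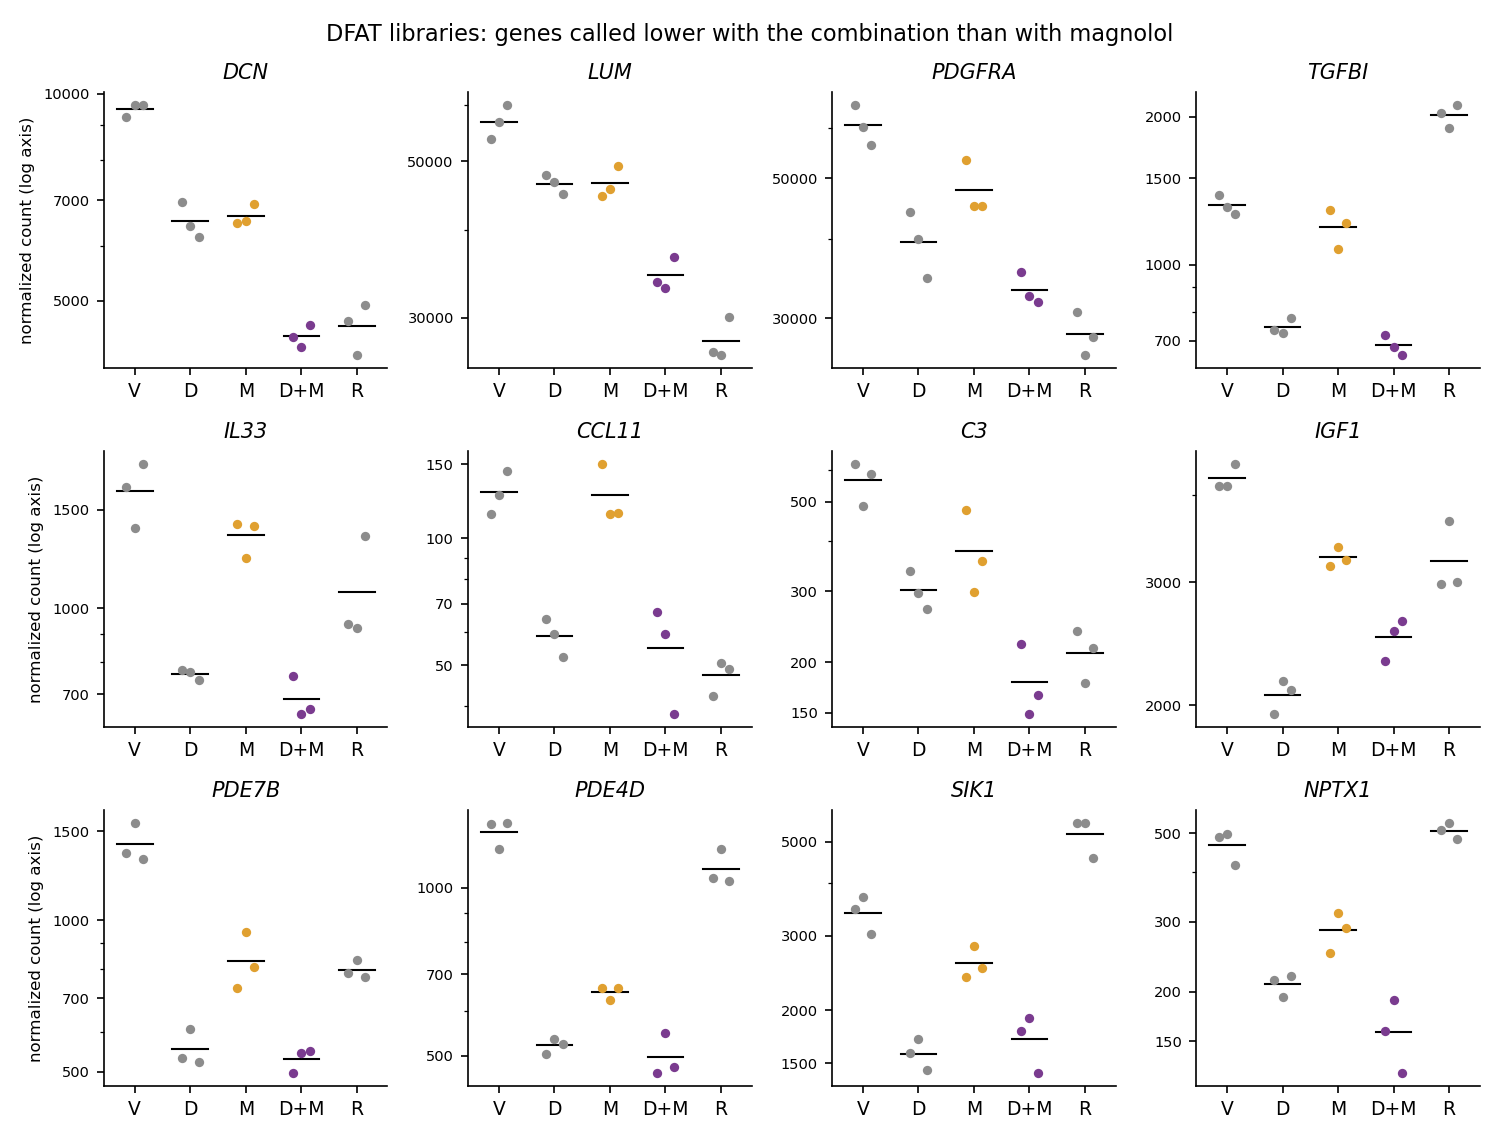
Normalized counts (log axis) of 12 genes called lower, in the 3 libraries each of vehicle (V), dicoumarol (D), magnolol (M), combination (D+M) and rosiglitazone (R); points are libraries in the order of their replicate numbers and bars are means. The 3 combination libraries lie below the 3 magnolol libraries in every panel, while TGFBI, SIK1 and NPTX1 have their highest means with rosiglitazone.

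Among the called genes, the largest fall was in CCL11, a secreted immune factor. CCL11 (ENSSSCG00000044762, chromosome 12, 40779173 to 40782893, minus strand), the chemokine eotaxin, had 151, 114 and 115 normalized counts with magnolol and 66.7, 59.3 and 38.2 with the combination, a 2.33-fold fall (log2 fold change −1.22, SE 0.20, adjusted p 0.00498). C3 (ENSSSCG00000013551, chromosome 2, 72431212 to 72472228, plus strand), the central complement component, had 476, 299 and 356 and 222, 149 and 166 (log2 fold change −1.07, SE 0.17, adjusted p 0.00498). Replicate 1 was the highest library in each group for both genes. IL33 (ENSSSCG00000005203, chromosome 1, 215899436 to 215941840, minus strand), an alarmin made by stromal cells, fell from 1417, 1231 and 1406 to 754, 645 and 659.9 (log2 fold change −0.98, SE 0.12, adjusted p 0.000692), and its call held under every alternative. CCL11 and IL33 were the 2 called genes of 32 chemokines and cytokines (median −0.083). Of 18 complement genes, MASP1, a protease of the lectin pathway, was the other called one (−0.28, SE 0.059, adjusted p 0.0406). The complement median was −0.26, and 15 members were below 0, beside 7528 of all 14819 genes tested. With the block 5 were called lower, C1R, C1S and the C1 inhibitor SERPING1 added (−0.36, −0.27 and −0.29). The summed level of the leukocyte markers was 857 to 1041 with magnolol and 834 to 1026 with the combination, PTPRC reached at most 0.981, and CD3E was at 0. MASP1 lost its call without combination replicates 1 and 2 or magnolol replicates 1 and 3 (adjusted p 0.169 to 0.205). Calls ended, too, with only the compared groups fitted for CCL11, C3 and MASP1 (adjusted p 0.0809 to 0.164), with no filter on low genes for MASP1 (0.0719) and without the variance trend for MASP1 (0.108).

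Phosphodiesterases, which break down cyclic nucleotides and are the enzymes IBMX inhibits, and cAMP-responsive genes held further falls. PDE7B (ENSSSCG00000004165, chromosome 1, 27958270 to 28302666, minus strand), a cAMP-specific phosphodiesterase, had 735, 947 and 807 normalized counts with magnolol and 497, 544 and 550.4 with the combination (log2 fold change −0.64, SE 0.10, adjusted p 0.00264), and kept its call under every alternative. PDE4D had 661, 629 and 659.7 and 465, 549.7 and 478 (log2 fold change −0.39, SE 0.081, adjusted p 0.0315). PDE4B had 609, 853 and 539 and 492, 578 and 362, overlapping groups in which the combination was lower in each numbered pair (−0.48, SE 0.23, adjusted p 0.777; 0.00466 with the block). PDE3B, the insulin-regulated phosphodiesterase of fat cells, went the other way and was called only with the block (0.64, adjusted p 0.0672 and 0.03). The 17 tested phosphodiesterases had a median of −0.019. SIK1, a kinase that cAMP induces, fell from 2395, 2830 and 2514 to 1791, 1920 and 1421 (log2 fold change −0.60, SE 0.11, adjusted p 0.013) and was the 1 called gene of 35 in the cAMP list (median −0.056). With the block 6 of them were lower, FOSB, EGR1, EGR2, NR4A2 and MAFF besides SIK1, and SIK2 was higher. PDE4D lost its call without combination replicates 1 and 3 or magnolol replicates 1, 2 and 3 (adjusted p 0.0745 to 0.188) and SIK1 without combination replicate 3 or magnolol replicate 2 (0.0681 and 0.0819). Among other settings, calls ended with only the compared groups fitted for PDE4D and SIK1 (adjusted p 0.157 and 0.0884), with no filter on low genes for PDE4D and SIK1 (0.0539 and 0.0719), without the variance trend for PDE4D and SIK1 (0.0576 and 0.0796), after rescaling to the same total for PDE4D (0.058) and with limma-voom for PDE4D (0.0612).

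Other secreted and receptor genes were among the 12 largest falls. ESM1, the proteoglycan endocan, had 229, 311 and 386 normalized counts with magnolol and 140.3, 153 and 136 with the combination (−1.07, SE 0.22, adjusted p 0.0294). NPTX1, a neuronal pentraxin, had 249.9, 316 and 289 and 159, 191 and 125 (−0.86, SE 0.13, adjusted p 0.00353). BDKRB2, the bradykinin B2 receptor, had 289, 336 and 398 and 189, 209 and 186 (−0.79, adjusted p 0.00241). C14orf132 had 159.6, 209 and 230.4 and 102, 113 and 107 (−0.87, adjusted p 0.00264). SEMA3A, a secreted semaphorin, fell by 0.58 on the log2 scale (adjusted p 0.0271). From the lists, ERRFI1, a feedback inhibitor of EGF receptor signalling, fell by 0.57 (adjusted p 0.013) and CDKN2B, an inhibitor of the cell cycle, by 0.37 (adjusted p 0.0406). PI15, a peptidase inhibitor, had 48.2, 79.5 and 64.2 and 44.1, 47.9 and 36.9 and was not called (−0.54, adjusted p 0.442). CBLN4, a secreted cerebellin, had 1256, 1120 and 1143 and 969, 804 and 757, separated groups, and was called only with the block (−0.48, adjusted p 0.0952 and 0.00259). ESM1 lost its call without combination replicates 1, 2 and 3 or magnolol replicates 2 and 3 (adjusted p 0.0685 to 0.165), SEMA3A without combination replicates 1 and 2 or magnolol replicates 1, 2 and 3 (0.0655 to 0.147), ERRFI1 without combination replicate 3 or magnolol replicates 1 and 3 (0.0728 to 0.0928) and CDKN2B without any 1 of the 6 libraries (0.0559 to 0.206). A call ended as well with only the compared groups fitted for ESM1, NPTX1, BDKRB2, C14orf132, ERRFI1 and CDKN2B (adjusted p 0.0533 to 0.134), with no filter on low genes for ESM1, SEMA3A, ERRFI1 and CDKN2B (0.0604 to 0.141), without the variance trend for ESM1, SEMA3A, ERRFI1 and CDKN2B (0.0663 to 0.127), after quantile normalization for CDKN2B (0.0553) and with limma-voom for ESM1 (0.0967).

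The genes of dicoumarol's textbook targets, VKORC1 and NQO1, showed no called change at the RNA level, and neither did GGCX. VKORC1, the vitamin K epoxide reductase, had 2192, 2220 and 1847 normalized counts with magnolol and 2115, 2176 and 1696 with the combination (−0.068, SE 0.10). GGCX, the carboxylase that uses vitamin K, had 25021, 23773 and 25615 and 25230, 24796 and 26490 (0.04, SE 0.056). NQO1 had 1185, 1499 and 1278 and 1265, 1352 and 1261 (−0.025, SE 0.079). In all 3 genes the groups overlapped. None of 20 vitamin K genes was called (median 0.015, 2 at an unadjusted p under 0.05). Over all genes tested, 0.621% were called and 6.67% had an unadjusted p under 0.05. Of 24 NRF2 target genes, which respond to oxidative stress, MGST1, a microsomal glutathione transferase, rose from 1336, 1621 and 1363 to 2327, 2081 and 2317 (0.64, SE 0.10, adjusted p 0.00406), a call held under every alternative, and the list median was −0.018. None of 37 integrated stress response genes was called (median −0.051, 4 at an unadjusted p under 0.05), and TRIB3, one of them, had 7200, 7164 and 6436 and 7118, 7142 and 5921 (−0.047, SE 0.082).

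**Figure D4:**
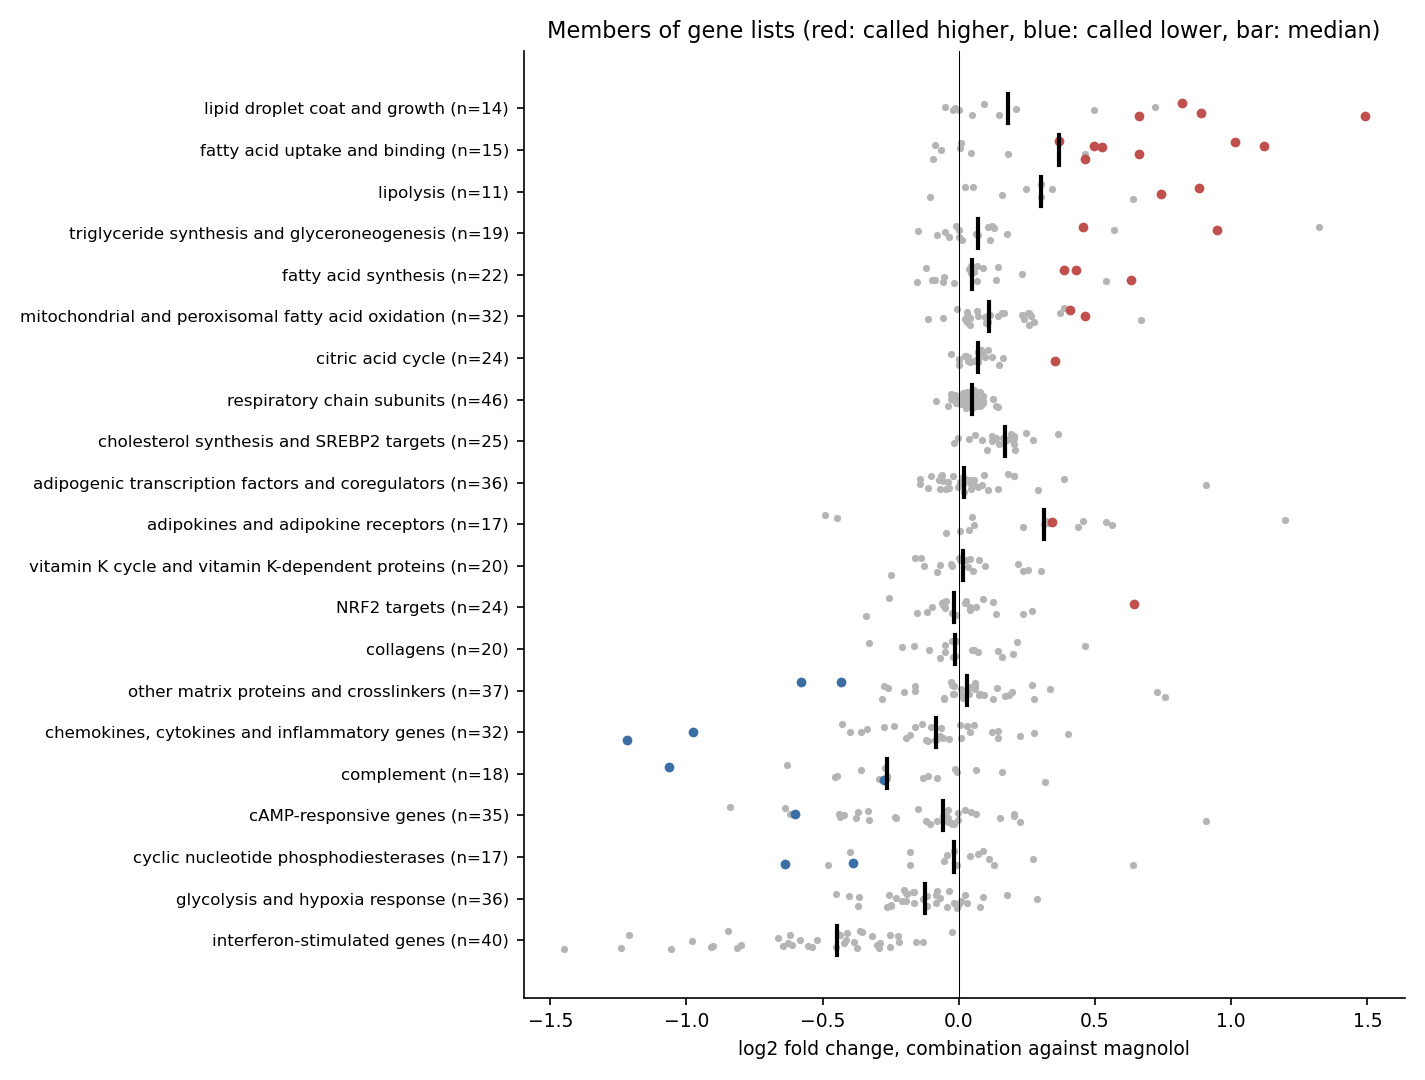
Log2 fold changes, combination against magnolol, of the tested members of 21 gene lists (rows, with the number tested); each point is a gene, red if called higher, blue if called lower and grey if not called, spread vertically at random for visibility, and black bars are list medians. The droplet and uptake rows hold 4 and 7 genes called higher, and all 40 interferon-stimulated genes lie left of 0 with none called.

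Dicoumarol alone was compared with vehicle to see what it did without magnolol, in 6 libraries that the combination and magnolol groups do not share. Both comparisons came from 1 model with 1 estimate of each gene's spread. Genes of low spread are thus favoured in both sets of calls, and the overlap of the calls is not that of independent tests. Limma called 288 genes (1.94%) there, 135 higher (0.911%) and 153 lower (1.03%). Of the 57 genes higher on magnolol, 52 were above 0 with dicoumarol alone, 26 were called higher and 1 was called lower. Of the 35 genes lower on magnolol, 34 were below 0 and 25 were called lower. The direction was thus shared by 86 of 92 genes (93.5%), against 59.7% of all genes tested. The 51 genes called in both comparisons in the same direction were 55.4% of the 92 and 17.7% of the 288. For the alternatives the 92 genes of the main fit were held fixed, and only their calls with dicoumarol alone were renewed. With 1 library left out, 41 to 53 of the 92 were called in the same direction with dicoumarol alone. With the block, 60 were. The count of 288 was 165, 154 and 153 without dicoumarol replicates 1, 2 and 3, 163 without vehicle replicate 1, and 670 with the block. The median with dicoumarol alone was 0.34 over the 57 genes and −0.59 over the 35, beside 0.00034 for all genes. IL33 changed by −0.98 on magnolol and −1.08 alone, TGFBI by −0.80 and −0.82, and DCN by −0.58 and −0.54. FABP4 rose by 1.12 and 0.72, and TRARG1 by 1.14 and 0.73. Other genes were called with dicoumarol on magnolol but not alone: PLIN2 (0.66 and 0.25), ACSL1 (0.49 and 0.18), LPL (0.46 and 0.087) and RETSAT (0.49 and 0.24), and none of these 4 passed the test of the difference given next (adjusted p 0.282, 0.529, 0.699 and 0.892).

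**Figure D5:**
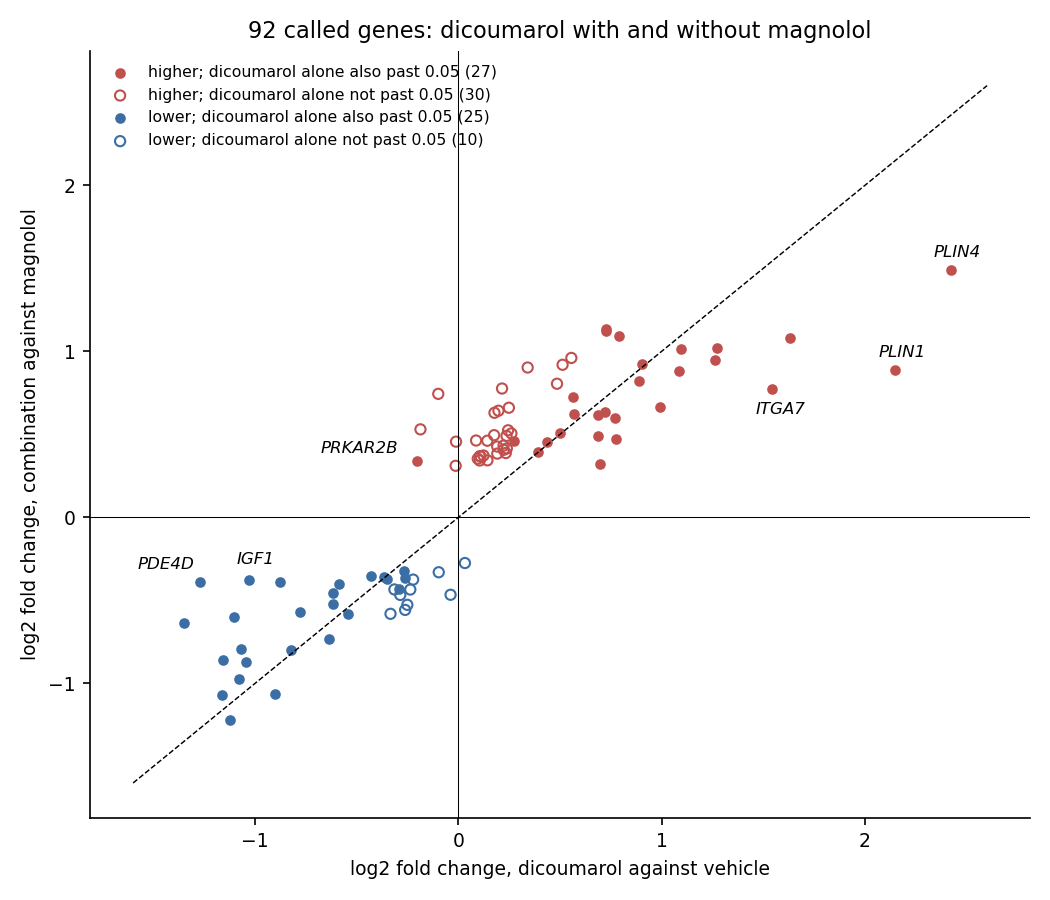
Log2 fold changes of the 92 called genes, dicoumarol against vehicle (x axis) and combination against magnolol (y axis); red genes are higher and blue genes lower on magnolol, filled points have an adjusted p under 0.05 with dicoumarol alone, and the dashed line marks equal changes. The 6 named genes have a called difference between both effects, with PLIN1 and PLIN4 below the line and PDE4D and IGF1 above it.

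The difference between the dicoumarol effects, with magnolol minus without it, was called for 12 of the 14819 genes (0.081%), 6 of them among the 92. Mean PLIN4 was 204 ± 23.5 normalized counts (SD, n = 3) in the vehicle group and 1096 ± 90.1 in the dicoumarol group, and it went from 2279 ± 195 with magnolol to 6388 ± 202 with the combination. Its log2 rise was 2.42 in the first step and 1.49 in the second (difference −0.93, SE 0.15, adjusted p 0.0168). PLIN1 rose by 2.15 and 0.89 (difference −1.26, adjusted p 0.0011). ITGA7, a laminin-binding integrin chain outside the rule for named genes, rose by 1.54 and 0.77 (difference −0.77, adjusted p 0.0202). PDE4D fell less on magnolol, −1.27 against −0.39 (difference 0.88, adjusted p 0.00179), and so did IGF1, −1.03 against −0.38 (difference 0.65, adjusted p 0.0244). The means of PDE4D were 1259 ± 76.6, 521 ± 16.8, 650.0 ± 18.4 and 497 ± 45.7 with vehicle, dicoumarol, magnolol and the combination. PRKAR2B, a regulatory subunit of protein kinase A and also outside the rule, was the 1 gene called in opposite directions. It went from 2578 ± 67.3 to 2237 ± 32.5 with dicoumarol (−0.20, adjusted p 0.0394) and from 2558 ± 79.1 to 3236 ± 20.4 on magnolol (0.34, adjusted p 0.00233; difference 0.54, adjusted p 0.00179). The lower call with dicoumarol alone was lost without any 1 dicoumarol or vehicle library, and without combination replicates 1 or 2 or magnolol replicate 2, which share its spread. The differences of PLIN1, PDE4D and PRKAR2B were called under every alternative run, while those of PLIN4 and ITGA7 were lost without combination replicate 2, dicoumarol replicates 1 and 2 or magnolol replicate 2 (0.0533 to 0.0658) and without combination replicates 1 and 2, dicoumarol replicates 1, 2 and 3, magnolol replicates 2 and 3 or vehicle replicates 1 and 3 (0.0617 to 0.0862), and that of IGF1 without combination replicates 2 and 3, dicoumarol replicates 1, 2 and 3, magnolol replicates 1, 2 and 3 or vehicle replicates 1, 2 and 3 (0.0538 to 0.122). Calls of a difference were lost, too, with no filter on low genes for all 3 (adjusted p 0.104 to 0.111), without the variance trend for all 3 (0.136 to 0.175), after rescaling to the same total for all 3 (0.0783 to 0.0862) and with limma-voom for PLIN4 (0.0646).

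Rosiglitazone against vehicle, again in libraries shared with neither group but with the same estimate of each gene's spread, gave 1604 calls (10.8%), 860 higher (5.8%) and 744 lower (5.02%). Of the 57 genes that rose with the combination over magnolol, 49 were called higher with rosiglitazone and 2 lower, with a median log2 fold change of 1.12 beside −0.0057 for all genes. PLIN4 rose by 4.74, AQP3 by 4.37, FABP3 by 3.71 and FABP4 by 3.66 with rosiglitazone. OXCT1 was called in opposite directions, 0.46 on magnolol and −0.29 with rosiglitazone (adjusted p 0.00745). The 35 falls were shared less evenly: 18 were called lower with rosiglitazone and 7 higher, with a median of −0.36. CCL11 (−1.42), C3 (−1.42), DCN (−1.05) and PDGFRA (−1.10) fell with rosiglitazone too, while TGFBI (0.61), SIK1 (0.62) and BDKRB2 (0.54) rose (adjusted p 2.1e-05, 0.001 and 0.00461). The differences between these effects were not tested, and the rosiglitazone comparison was not refitted under the alternatives.

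In 3T3-L1 cells the same comparison gave no call. Of 15723 mouse genes limma called 0 (0%) with and without the block, 336 (2.14%) had an unadjusted p under 0.05, and the smallest adjusted p was 0.9999 (0.0577 with the block). The mouse values were noisier, with a median SE of 0.146 against 0.099. Of the 92 DFAT genes, 65 had a mouse gene of the same symbol that was tested. Among these, 29 of 41 genes that rose in DFAT cells were above 0 in 3T3-L1 (median 0.16) and 18 of 24 that fell were below 0 (median −0.11), whereas 49.2% of 9371 matched genes had the same sign. FABP4 (0.65, unadjusted p 0.055), TRARG1 (0.59, 0.248), CIDEC (0.60, 0.28) and PLIN4 (0.14, 0.289) were not called in mouse cells, and ITGA7 alone of the 65 had an unadjusted p under 0.05 (0.55, 0.0418). The tables of both species were normalized separately, and the difference between species was not tested. Without regard to the test, the 3 combination and 3 magnolol libraries did not overlap for 8.99% of the mouse genes.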

How the data were processed

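The submitters' processing notes name bcl2fastq 2.19.1.403, STAR, DESeq2 and the build GRCm38, which is a mouse build. The pig build is not given in the sources used here, and coordinates are as deposited, with the end taken as the listed stop less 1. Per the labels, libraries were made from enriched mRNA with strand marking. The deposited values are signal values, gene counts that the authors divided by 1 DESeq2 size factor per library. They were not whole reads throughout: within 0.02, 89.7% to 91.0% of values up to 20 reads were whole, so no count test was run as the main test, and depth was estimated from what 1 read is worth. Chi-square per gene between replicates was 8.04 to 62.9, above sampling noise, so all replicates were kept as separate samples. Of 34307 pig genes 16875 had no symbol and 9113 were at 0 throughout.

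Over the 15 DFAT libraries, genes whose mean reached 10 entered a limma fit (version 3.58.1, R 4.3.3) of log2(value + 1), all 5 groups in 1 model with a variance trend, two-sided, with Benjamini-Hochberg adjustment over all tested genes at 0.05. SE is limma's moderated standard error. Same-numbered combination and magnolol libraries had deviations from their group means that correlated at 0.118, 0.212 and 0.345 over 14819 genes, against −0.244 to 0.0613 for different numbers. All 3 exceeded 0.1, so the numbers were taken to pair the libraries, as a hint from the data and not from the labels. Deviations within a group sum to 0 for each gene, so the values for different numbers are not separate evidence of pairing. Calls made only with the block rest on this hint. The block uses the numbers in all 5 groups, but the hint was looked for only between combination and magnolol libraries. The fit was checked on simulated data. Named genes were the 12 largest rises and falls among called genes with a symbol and at least 50 normalized counts on average in the 6 libraries, called members of 43 gene lists with that mean, and a panel of 22 genes; others are named as outside this rule. The lists were written from general knowledge, and members, lists and rule were chosen with earlier results of these data known. Alternatives were the replicate block, the compared groups alone, both together, pseudocounts of 5 and 0.5, no filter, a minimum mean of 50, quantile normalization, equal totals, no variance trend, limma-voom on estimated reads, and leaving out each library. Python 3.11.15 with matplotlib 3.10.9 drew the plots.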

Additional observations from a re-analysis of the deposited data

Results flagged for a closer look

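A test of the difference itself singled out 12 genes whose dicoumarol effect differed with and without magnolol in DFAT cells (limma, adjusted p under 0.05 over 14819 genes). Differences are the log2 fold change on magnolol minus that without it. Below 0 were ADIPOQ (−2.85, adjusted p 0.000897), PLIN1 (−1.26, 0.0011), PLIN4 (−0.93, 0.0168), CSPG4, a proteoglycan of pericytes and progenitors (−0.85, 0.0011), ITGA7 (−0.77, 0.0202) and CRABP2, a carrier of retinoic acid (−0.72, 0.0202). ADIPOQ changed by 3.39 with dicoumarol alone and by 0.54 on magnolol, CSPG4 by 1.15 and 0.30, and CRABP2 by 0.80 and 0.081.

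Above 0 were NR4A1, a nuclear receptor that cAMP induces (1.17, adjusted p 0.0198), PDE4D (0.88, 0.00179), IGF1 (0.65, 0.0244), EDNRA, an endothelin receptor (0.63, 0.0168), CAT, the peroxisomal catalase (0.56, 0.0244), and PRKAR2B (0.54, 0.00179). NR4A1 changed by −1.21 alone and −0.038 on magnolol, EDNRA by −0.78 and −0.15, and CAT by −0.42 and 0.14. ADIPOQ, CSPG4, PDE4D, PLIN1 and PRKAR2B were called under every alternative run. The other 7 lost their calls in 1 or more leave-one-out fits: CAT without combination replicates 1 and 2, dicoumarol replicates 1, 2 and 3, magnolol replicates 1 and 3 or vehicle replicates 1, 2 and 3 (0.0538 to 0.131), CRABP2 without combination replicates 1 and 2, dicoumarol replicates 1, 2 and 3, magnolol replicates 2 and 3 or vehicle replicates 1 and 2 (0.0548 to 0.099), EDNRA without combination replicate 2, dicoumarol replicates 1 and 2, magnolol replicates 1 and 3 or vehicle replicates 1 and 3 (0.0505 to 0.0862), NR4A1 without combination replicates 1 and 2, dicoumarol replicates 2 and 3, magnolol replicate 2 or vehicle replicates 1 and 3 (0.0678 to 0.0862), IGF1 without combination replicates 2 and 3, dicoumarol replicates 1, 2 and 3, magnolol replicates 1, 2 and 3 or vehicle replicates 1, 2 and 3 (0.0538 to 0.122), ITGA7 without combination replicates 1 and 2, dicoumarol replicates 1, 2 and 3, magnolol replicates 2 and 3 or vehicle replicates 1 and 3 (0.0617 to 0.0862) and PLIN4 without combination replicate 2, dicoumarol replicates 1 and 2 or magnolol replicate 2 (0.0533 to 0.0658). Calls of a difference were lost, too, with no filter on low genes for CAT, CRABP2, NR4A1, IGF1, ITGA7 and PLIN4 (adjusted p 0.104 to 0.111), without the variance trend for all 7 (0.0992 to 0.175), after rescaling to the same total for CAT, CRABP2, EDNRA, IGF1, ITGA7 and PLIN4 (0.0783 to 0.1), after quantile normalization for CAT (0.102) and with limma-voom for PLIN4 (0.0646).

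FLNC, the actin crosslinker filamin C, had opposite directions in the 2 cell systems: the groups did not overlap in either, with a log2 fold change of −0.18 in 3T3-L1 cells and 0.32 in DFAT cells. This difference was not tested, and FLNC was picked for it. Groups did not overlap for 12.1% of all DFAT genes tested and 8.99% of the mouse genes. The DFAT call of FLNC was lost without combination replicates 1, 2 and 3 or magnolol replicates 1 and 2 (limma adjusted p 0.0629 to 0.157). It also ended with only the compared groups fitted (0.0884), with no filter on low genes (0.0637), without the variance trend (0.095) and after rescaling to the same total (0.0539).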

How the results depend on the processing

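No called gene of the DFAT comparison turned its direction under any of the 17 alternatives. The count of 92 became 290 with the replicate block (151 higher, 139 lower), 1181 with the block and only the compared groups (620 and 561), 44 with only the compared groups (36 and 8) and 57 without the variance trend (18 lower), and with no filter 20 were lower. The block kept all 92 calls and, apart from the calls it added, changed none. Leaving out 1 library gave 44 to 68 genes, 29 to 48 higher and 15 to 25 lower: magnolol replicate 1 (44) and combination replicates 1 and 3 (49 and 54) lowered it most, with fewer samples in each fit. The lower calls were 18 and 20 without magnolol replicates 2 and 3. Other settings gave 63 to 100 calls, and rescaling moved the median of all genes by −0.0272 at most. The 12 differences between dicoumarol effects became 34 with the block, 7 with no filter, 5 without the trend, 6 after rescaling to the same total (a setting added for these differences after the data were seen) and 5 to 13 without single libraries (5 without combination replicate 2 or dicoumarol replicate 2, 6 without dicoumarol replicate 1 or vehicle replicate 1, 7 without dicoumarol replicate 3 or magnolol replicate 3). The 3T3-L1 count was 0 in all 9 fits, the block included. PCK1 and PDK4 had SEs of 0.49 and 0.35, against a median of 0.099, and the part of depth in this was not tested. Where no cause is given above, the cause was not tested.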

Other observations

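Interferon-stimulated genes, which mark the antiviral response, all lay below 0 without a single call. This held for all 40 tested members in the combination against magnolol, with a median log2 fold change of −0.45 beside −0.0019 for all tested genes. Of all 14819 genes tested, 7528 were below 0 and 6.67% had an unadjusted p under 0.05. CXCL10 (−1.45), IFIT1 (−1.24), RSAD2 (−1.21) and IFIT2 (−1.06) were the lowest, 26 of 40 had an unadjusted p under 0.05, and none passed adjustment with limma. With the replicate block IRF1 alone was called (−0.32, adjusted p 0.163 without it and 0.0369 with it). The list's median, relative to the mean of the magnolol libraries, was −0.15, 0.36 and −0.19 in magnolol replicates 1 to 3 and −0.60, −0.18 and −0.71 in the combination replicates. Replicate 2 was thus the highest library in both groups, and combination replicate 2 lay within the range of the magnolol libraries. With dicoumarol alone against vehicle the median was 0.30, above 0, and no member was called. On the scale used above, the list's median was 0.10, −0.27 and 0.25 in dicoumarol replicates 1 to 3. In vehicle replicates 1 to 3 it was −0.40, −0.17 and −0.21. Dicoumarol replicate 2 thus lay within the range of the vehicle libraries.

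Glycolysis and hypoxia genes leaned lower and sterol synthesis genes higher, both short of the threshold. Of 36 glycolysis and hypoxia genes 29 were below 0 (median −0.12), none was called and 14 had an unadjusted p under 0.05. Over all 14819 genes tested, 7528 were below 0, 7291 were above 0 and 6.67% had an unadjusted p under 0.05. With the block ALDOC, an aldolase, was called higher and HK2 (−0.26), EGLN3 (−0.37), PFKFB3 (−0.37), NDRG1 (−0.40) and the lactate exporter SLC16A3 (−0.45) lower. With dicoumarol alone 5 members of the list were called lower (median −0.19). Of 25 genes of cholesterol synthesis 23 were above 0 (median 0.17), none was called, 13 had an unadjusted p under 0.05, and with the block MVK (0.36) and IDI1 (0.27) were called. The median with dicoumarol alone was 0.14.

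Of the 92 called genes 49 were in none of the 43 lists. Named here after their values were seen, those whose calls held under every alternative included MYOM1, a protein of the muscle M band, with 1592, 1386 and 1718 normalized counts with magnolol and 2537, 2404 and 3120 with the combination (0.78, adjusted p 0.00233). PLXNA4, a semaphorin coreceptor, had 10790, 10646 and 11821 and 15097, 15163 and 16501 (0.49, adjusted p 0.0018). CPED1 had 950.4, 1125 and 1147 and 1630, 1497 and 1863 (0.63, adjusted p 0.00173), and ITGA7 3135, 3419 and 3268 and 5622, 5603 and 5560 (0.77, adjusted p 0.000289). Beside MYOM1, skeletal muscle markers summed to 192 to 287 with magnolol and 273 to 334 with the combination, 9 of 14 stayed below 10 in all 6 libraries, and MYH1, MYH8, TNNT3 and PAX7 were at 0. Their part in the MYOM1 rise was not tested.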
